A study of Mus musculus with 9 samples.

Results

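Transcript levels were followed for 10 mouse genes of the actin cytoskeleton and of the SRF axis that controls it, in testicular peritubular myoid cells before and after heat. The genes were picked by symbol: Actb, Actg1, Srf, Mkl1, Vcl, Flna, Tpm1, Tpm4, Actn1 and Cnn2, 10 of the 20717 gene rows in the deposited table. Mkl1 is the table's name of Mrtfa. All 10 had values in every library and all 10 were among the 11460 genes tested. The cells were primary peritubular myoid cells of C57BL/6J mice, the contractile layer around the seminiferous tubule, grown in DMEM/F12 with fetal bovine serum at 37 °C. Of 9 libraries, 3 came from cells collected 1 h after a 30 min water bath at 42 °C, 3 from cells collected 6 h after the same bath, and 3 from unheated control cells. The labels name no transgene or deletion in any group. The labels number the replicates of a group but do not say whether they were separate animals or cultures, so the p-values compare libraries whose spread could be technical.

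Actin exists in cells as free monomers and as filaments, and the balance between these forms is read by the transcription cofactor MRTF-A, the product of Mkl1. Monomeric actin binds MRTF-A and keeps it out of the nucleus. When signals at the cell surface drive actin into filaments, MRTF-A is released, joins the DNA-binding factor SRF on CArG boxes, and raises transcription of actin and of many filament-binding and adhesion proteins. SRF also works with the ternary complex factors Elk1, Elk3 and Elk4, which answer to MAP kinase signalling and switch on immediate early genes such as Fos and Egr1. In smooth muscle and myoid cells the same axis maintains the contractile gene set.

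CArG boxes were searched for by script in the RefSeq promoters of the genes (build GRCm38.p6, from 250 bases before to 50 after each annotated start, both strands). Such a window was available for 9 of the 10 genes, all but Actb, with Mkl1 matched under Mrtfa and having 2 windows. Of the 9 genes, 4 held a CArG box, against 1.57% of 27025 promoters of the same length, taking the first listed for each gene. The 4 windows are shown because they carry the DNA element that SRF binds, with the CArG boxes in capitals.
Srf, minus strand, chr17:46556113-46556412: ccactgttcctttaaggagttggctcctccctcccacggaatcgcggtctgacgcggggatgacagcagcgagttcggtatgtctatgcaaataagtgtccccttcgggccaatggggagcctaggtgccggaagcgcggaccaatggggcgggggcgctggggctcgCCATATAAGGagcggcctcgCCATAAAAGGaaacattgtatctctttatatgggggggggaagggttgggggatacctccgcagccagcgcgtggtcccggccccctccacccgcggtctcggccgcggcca
Actg1, minus strand, chr11:120348446-120348745: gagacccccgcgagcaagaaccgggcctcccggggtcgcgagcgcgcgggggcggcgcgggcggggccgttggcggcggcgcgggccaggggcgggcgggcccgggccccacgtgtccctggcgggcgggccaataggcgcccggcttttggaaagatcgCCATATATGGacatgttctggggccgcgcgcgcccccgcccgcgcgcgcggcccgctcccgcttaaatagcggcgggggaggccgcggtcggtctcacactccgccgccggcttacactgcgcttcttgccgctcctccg
Vcl, plus strand, chr14:20929148-20929447: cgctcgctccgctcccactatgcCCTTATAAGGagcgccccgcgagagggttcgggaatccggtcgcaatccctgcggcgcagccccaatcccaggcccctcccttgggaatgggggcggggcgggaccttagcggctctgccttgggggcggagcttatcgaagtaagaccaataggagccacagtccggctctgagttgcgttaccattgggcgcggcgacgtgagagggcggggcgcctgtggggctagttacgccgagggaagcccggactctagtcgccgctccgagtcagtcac
Cnn2, plus strand, chr10:79988350-79988649: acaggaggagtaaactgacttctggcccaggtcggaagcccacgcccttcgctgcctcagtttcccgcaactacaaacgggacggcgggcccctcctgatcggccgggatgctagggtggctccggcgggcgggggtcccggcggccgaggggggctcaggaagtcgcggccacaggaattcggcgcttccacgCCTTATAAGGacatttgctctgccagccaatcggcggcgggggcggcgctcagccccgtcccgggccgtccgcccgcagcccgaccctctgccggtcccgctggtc
The Srf window held a pair of boxes, CCATATAAGG starting 82 bases and CCATAAAAGG starting 62 bases before the annotated start. Actg1 held CCATATATGG starting 90 bases before its start. Vcl and Cnn2 held the same 10 letters, CCTTATAAGG, starting 227 bases before the start of Vcl and 56 bases before that of Cnn2. The letters GAANNTTC, the core of the element bound by heat shock factors, were in no window of the 9 genes and in 7.95% of the 27025 promoters. A match is a description of the sequence, and no match says only that these letters are not in this window.

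The coding sequences of Actb and Actg1 are shown in part because they bear on how reads of these genes can be told apart. The first 90 coding bases are given below from GENCODE M21, with the bases that differ between the genes in capitals.
Actb, chromosome 5, minus strand: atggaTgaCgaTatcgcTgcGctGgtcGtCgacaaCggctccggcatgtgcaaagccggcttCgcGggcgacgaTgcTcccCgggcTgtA
Actg1, chromosome 11, minus strand: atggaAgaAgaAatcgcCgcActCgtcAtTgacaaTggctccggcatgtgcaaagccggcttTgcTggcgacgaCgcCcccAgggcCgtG
Of these 90 bases, 16 differ. Over the 1128 coding bases 128 differ, an identity of 88.7%, and the longest identical run is 62 bases. The table's own position for Actg1 is not that of 1 gene. Its start, 103563325, is given on chromosome 4, 77 bases before the processed pseudogene Gm12715 (chr4:103563402-103564529), while its end, 120348495, is the end of RefSeq's Actg1 on chromosome 11 (chr11:120345687-120348495). How the authors' counting divided reads between Actg1, its copies and Actb is not given in the sources used here, so the Actg1 level is uncertain.

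Depth and identity of the libraries set the limits of what follows. Each library held an estimated 19050000 to 20000000 reads. At that depth Mkl1, the least abundant of the 10 genes, had about 1000 reads in its lowest library, a counting error of 3.2%, so the spread between replicates and not depth set the precision. Hspa1a, which encodes an inducible HSP70 chaperone, had 1228, 1794 and 1513 FPKM at 1 h, 49.3, 27.1 and 40.4 FPKM at 6 h, and 10.2, 12.3 and 6.92 FPKM in control cells. The summed level of 5 heat-response genes (Hspa1a, Hspa1b, Dnajb1, Hsph1 and Hspb1) was 4651, 7002 and 6202 FPKM at 1 h, 2932, 313 and 1043 FPKM at 6 h, and 236, 211 and 406 FPKM in control cells. The 6 h libraries differed among themselves in this sum, with that of replicate 2 inside the control range, although Hspa1a was above control in all 3. The contractile markers were present throughout: the summed level of 7 of them (Acta2, Myh11, Des, Cnn1, Tagln, Smtn and Lmod1) ran from 2716 to 3953 FPKM. The summed level of 11 Sertoli cell markers was 3213 FPKM in control replicate 3 and 304 to 590 FPKM in the other 8 libraries, with Clu at 2700 and at most 437 FPKM and Cldn11 at 237 and at most 8.23 FPKM. Clu made up most of that sum, and Gata4, Inhbb and Krt18, at 79.9, 38.6 and 3.27 FPKM in control replicate 3, were inside the range of the other libraries. Wt1, Aard, Sox9 and Rhox5 were also highest in control replicate 3, at 53.8, 70.9, 27.7 and 1.64 FPKM. In the other libraries they reached at most 15.4, 7.12, 15.9 and 0.63 FPKM. Of those 11, Amh and Fshr were at or near 0 in every library. Their highest values, 0.26 and 0.09 FPKM, were those of control replicate 3. Leydig cell markers summed to 872 to 2139 FPKM. Insl3 ran from 181 FPKM in control replicate 3 to 1607 FPKM in control replicate 1. Cyp11a1 ran from 288 to 820 FPKM, Star from 42.2 to 211 FPKM and Hsd3b1 from 33.2 to 188 FPKM. Cyp17a1 and Hsd17b3 did not exceed 0.12 FPKM, Lhcgr 0.27 FPKM and Hsd3b6 0.94 FPKM. Macrophage markers summed to 30.6 to 291 FPKM. In bulk RNA, fewer cells of a type and less RNA per cell cannot be told apart.

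Mean levels over the 9 libraries ran from 16.2 FPKM (Mkl1) to 2497 FPKM (Actg1). FPKM is scaled to transcript length, so levels can be ranked between genes. By mean FPKM over the 9 libraries, Actg1 ranked 7, Actb 8, Tpm1 19 and Tpm4 96 among the 11460 genes tested. Cnn2 ranked 208, Actn1 213, Flna 323 and Vcl 688. The regulators were far less abundant, with Srf at rank 2521 and Mkl1 at rank 4372. Together the 10 genes held 1.33% (6 h replicate 2) to 1.99% (control replicate 3) of the summed FPKM of a library. Over the 9 libraries the ranges of Actg1 and Actb overlapped, as did those of Actb and Tpm1 and those of Cnn2 and Actn1. The other neighbours in this order did not overlap.

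**Figure D1:**
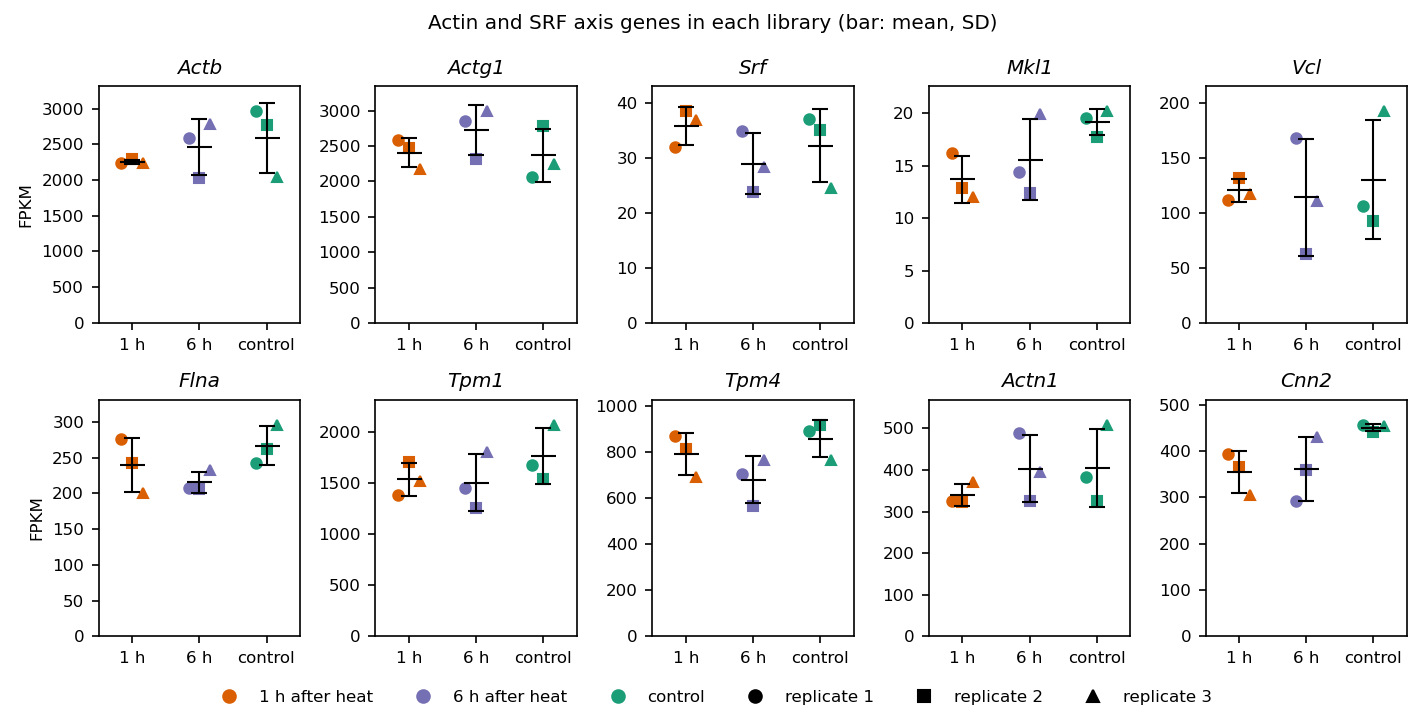
FPKM of each of the 10 genes (vertical axis, linear from 0) in cells 1 h after heat, 6 h after heat and in control cells. Each point is a library, its shape the replicate number, and the bars are the mean and SD of 3 libraries. The groups overlap in every panel except Mkl1 and Cnn2 at 1 h, and Flna and Cnn2 at 6 h, against control.

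No gene of the 10 passed the test after heat. Fitted with limma on log2(FPKM + 1) with Benjamini-Hochberg adjustment over 11460 genes, 0 of 10 were called at an adjusted p below 0.05 at 1 h against control, at 6 h against control or at 6 h against 1 h. In the same fits 0.157%, 0% and 0.279% of all genes were called, so 0 of 10 is near the background. The smallest adjusted p among the 10 was 0.44 at 1 h (Mkl1), 0.88 at 6 h and 0.57 for 6 h against 1 h (Srf). At an unadjusted p below 0.05 the counts were 1, 0 and 0 of 10, against 10.8%, 4.62% and 11.6% of all genes. That gene, Mkl1, was lower, as were 8.05% of all genes by that measure at 1 h, 3.35% at 6 h and 3.19% at 6 h relative to 1 h. A p that misses the threshold does not show that levels were alike. The 95% intervals bound the changes: all 10 lay within 2-fold either way at 1 h, 9 of 10 at 6 h (the exception was Vcl) and all 10 between 6 h and 1 h. Within 1.5-fold lay 3, 2 and 4 of them.

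At 1 h, 8 of the 10 log2 changes were below 0, with a median of -0.17, but the whole table was shifted in the same way. Over all 11460 genes the median at 1 h was also -0.17 and 76.2% of the changes were below 0. Median-of-ratios scaling, which sets the typical gene of each library to the same level, moved the median of all genes at 1 h to -0.01 and that of the 10 genes to 0.00, with 5 of 10 below 0. At 6 h the median of the 10 genes was -0.23, against -0.06 for all genes, with 9 of 10 below 0 against 60.1% of all genes. With median-of-ratios scaling it was -0.18, with 8 of 10 below 0. Both comparisons share the 3 control libraries. Between 6 h and 1 h the median was -0.01 over the 10 genes, 5 of them below 0, and 0.09 over all genes.

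**Figure D2:**
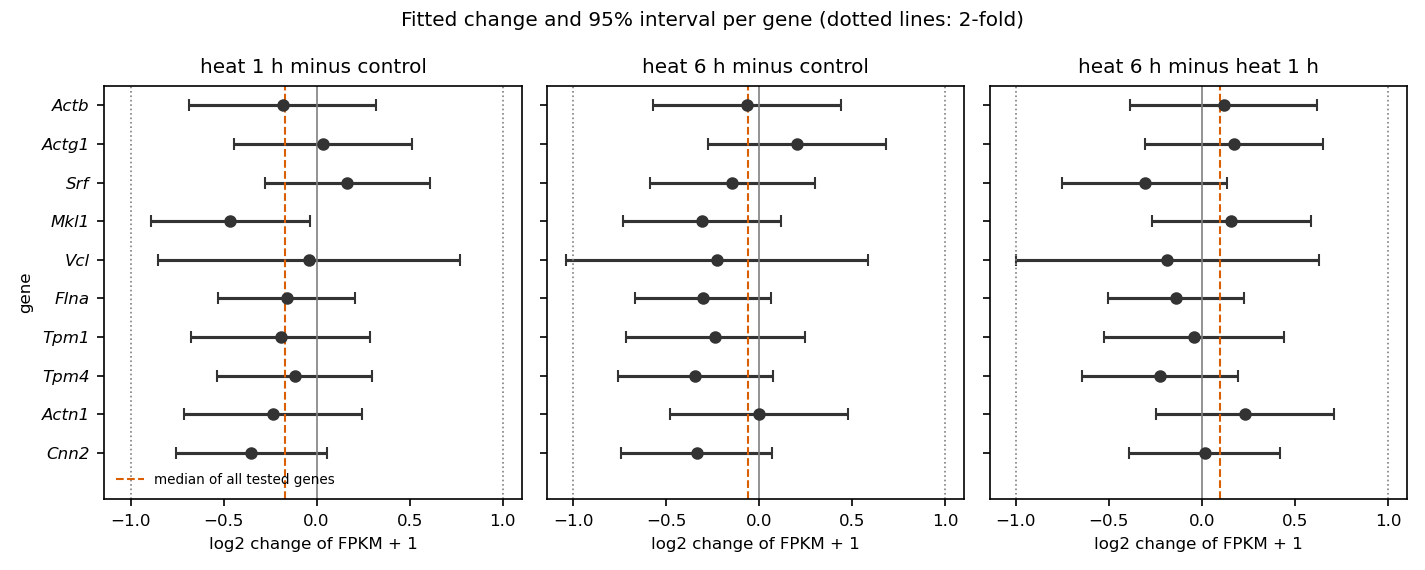
Fitted log2 change of FPKM + 1 (horizontal axis) of each gene with its 95% interval, for 1 h minus control, 6 h minus control and 6 h minus 1 h. The dashed line is the median of all tested genes and the dotted lines mark 2-fold. Only the interval of Mkl1 at 1 h leaves out 0, and that change has an adjusted p of 0.44.

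Groups that did not overlap were as frequent among the 10 genes as in the table at 1 h. In 2 of 10 (Mkl1 and Cnn2) all 3 libraries at 1 h lay below all 3 control libraries, against 21.4% of all genes, and none lay wholly above, against 4.49%. At 6 h, 2 of 10 (Flna and Cnn2) lay wholly below control, against 5.32% of all genes, and none wholly above, against 1.89%. Between 6 h and 1 h all 10 overlapped, against 4.97% of all genes wholly lower and 15.2% wholly higher at 6 h. Leaving out a library of a comparison can only keep or raise such counts, and the share of all genes rises with them. Without control replicate 3, 5 genes did not overlap at 1 h (Actb, Mkl1, Tpm4 and Cnn2 lower, Vcl higher), against 43.4% of all genes, and 4 at 6 h (Srf, Flna, Tpm4 and Cnn2, all lower), against 15.7%. Without 6 h replicate 3, 5 were wholly lower at 6 h than in control cells (Mkl1, Flna, Tpm1, Tpm4 and Cnn2), against 11.2% of all genes wholly lower. Between 6 h and 1 h, 3 genes were wholly higher without 6 h replicate 2 (Actb, Actg1 and Actn1), where 41.6% of all genes did not overlap in either direction, and 2 wholly lower without 6 h replicate 1 (Srf and Vcl), against 9.52%. Without 1 h replicate 3, Flna and Tpm4 were wholly lower, against 8.32%, and Actn1 wholly higher, against 19.5%, and without 1 h replicate 1, 1 gene was wholly lower, against 7.14%. With median-of-ratios scaling no gene was separated at 1 h, against 9.03% of all genes wholly higher and 7.02% wholly lower, and 2 (Flna and Tpm4) were wholly lower at 6 h than at 1 h, against 9.09%.

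The cytoplasmic actins were the most abundant of the set. Actb encodes beta-actin, a core subunit of stress fibres and cell edges (chr5:142903115-142906754, minus strand). It had 2234, 2287 and 2237 FPKM at 1 h, 2585, 2024 and 2782 FPKM at 6 h, and 2960, 2773 and 2038 FPKM in control cells. The 1 h libraries lay close together, inside the range of both other groups. The log2 change was -0.18 (SE 0.22, adjusted p = 0.72) at 1 h and -0.07 (adjusted p = 0.97) at 6 h. Its SD on the log2 scale was 0.02 at 1 h, the lowest of the 10 genes in that group, against 0.24 at 6 h and 0.29 in control cells.

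Actg1 encodes gamma-actin, the other cytoplasmic isoform. It had 2578, 2465 and 2176 FPKM at 1 h, 2850, 2320 and 2989 FPKM at 6 h, and 2067, 2781 and 2249 FPKM in control cells. The groups overlapped, with 6 h replicate 3 highest and control replicate 1 lowest. Its log2 change was 0.03 (SE 0.21, adjusted p = 0.95) at 1 h and 0.20 (adjusted p = 0.89) at 6 h, the highest of the 10 at 6 h. The ratio of Actg1 to Actb was 1.15, 1.08 and 0.97 at 1 h, 1.10, 1.15 and 1.07 at 6 h, and 0.70, 1.00 and 1.10 in control cells. The low value of control replicate 1 stood apart within its group. In two-sided exact permutation tests over libraries, with 3 against 3 and 0.1 the smallest p possible, the ratio gave p = 0.5 at 1 h and p = 0.3 at 6 h against control, and p = 0.7 for 6 h against 1 h. This ratio, that of Tpm1 to Tpm4 and that of Srf to Mkl1 were chosen after values were seen, and over these 9 tests the adjusted p ran from 0.79 to 0.9.

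Cytoplasmic isoforms made up most of the actin transcripts in every library. Actb made up 33.2% to 44.9% of the summed actin FPKM, Actg1 31.3% to 43.7% and Acta2, the smooth muscle isoform that marks contractile cells, 15.2% to 26.5%. Actg2, the enteric smooth muscle isoform, held 0.67% to 3.53%, and the striated muscle isoforms Acta1 and Actc1 reached at most 2.47 and 0.15 FPKM. Acta2 itself had 1320, 1266 and 1164 FPKM at 1 h, 992, 1005 and 1536 FPKM at 6 h, and 1505, 1349 and 1627 FPKM in control cells. It lay wholly below control at 1 h, as did 21.4% of all genes. Its log2 change at 6 h was -0.37 (SE 0.22, adjusted p = 0.88). Control replicate 3 held the highest shares of Acta2 and Actg2 and the lowest of Actb.

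**Figure D3:**
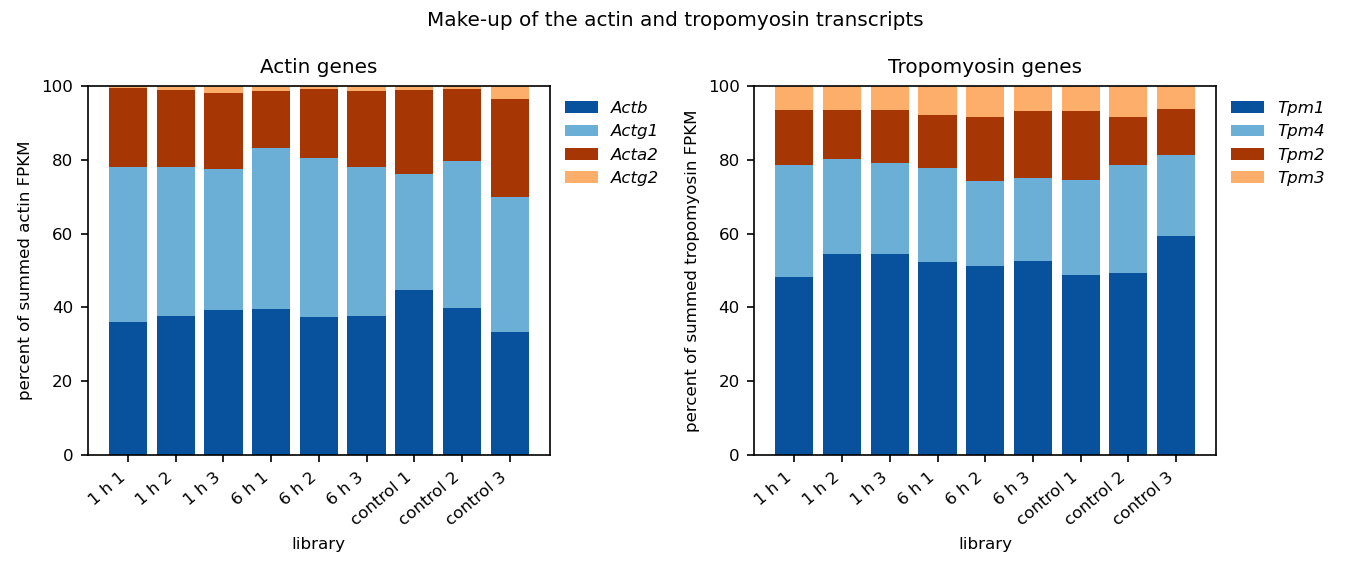
Percent of the summed FPKM of the actin genes (left) and of the tropomyosin genes (right) held by each isoform in each of the 9 libraries, as stacked bars from 0 to 100. Actb holds 33.2% to 44.9% of the actin total and Tpm1 48.3% to 59.5% of the tropomyosin total, and in control replicate 3 Actb is at its lowest share and Tpm1 at its highest.

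The regulators Srf and Mkl1 had the lowest levels of the 10 genes. Srf encodes the factor that binds CArG boxes, and the pair of boxes in its own promoter is shown above (gene at chr17:46546839-46556162, minus strand). It had 32.1, 38.5 and 37.0 FPKM at 1 h, 34.95, 23.8 and 28.4 FPKM at 6 h, and 37.1, 35.2 and 24.6 FPKM in control cells. The lowest values were those of 6 h replicate 2 and control replicate 3, and the groups overlapped. Its log2 change was 0.16 at 1 h (95% interval -0.28 to 0.61, adjusted p = 0.71), the highest of the 10 at that time, and -0.14 at 6 h (adjusted p = 0.91). Between 6 h and 1 h it was -0.31 (95% interval -0.75 to 0.13, adjusted p = 0.57), the lowest of the 10. Without control replicate 3 the 1 h change was -0.01.

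Mkl1 encodes MRTF-A, the actin-regulated partner of SRF (chr15:81012281-81190757, minus strand). It had 16.3, 12.9 and 12.02 FPKM at 1 h, 14.4, 12.4 and 19.9 FPKM at 6 h, and 19.6, 17.8 and 20.2 FPKM in control cells. All 3 libraries at 1 h were below every control library, and at 6 h only replicate 3 reached the control range. At 1 h 21.4% of all genes lay wholly below control, and with median-of-ratios scaling Mkl1 was not separated. Its mean was 13.7 ± 2.2 FPKM at 1 h, 15.6 ± 3.9 FPKM at 6 h and 19.2 ± 1.3 FPKM in control cells (SD, n = 3 each). The log2 change at 1 h, -0.46 (SE 0.19, 95% interval -0.89 to -0.04), was the lowest of the 10, with an unadjusted limma p of 0.036 and an adjusted p of 0.44. At 6 h the change was -0.31 (adjusted p = 0.88).

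Other cofactors of the MRTF family were low. Mkl1 made up 78.7% to 86.8% of the summed FPKM of Mkl1, Mkl2 and Myocd. Mkl2, which encodes MRTF-B, had 2.57, 2.41 and 2.39 FPKM at 1 h, 3.61, 2.26 and 3.22 FPKM at 6 h, and 2.74, 3.11 and 4.86 FPKM in control cells. It also lay wholly below control at 1 h, as did 21.4% of all genes. Myocd, the cardiac and smooth muscle cofactor myocardin, reached at most 0.79 FPKM in any library and was not tested. The ratio of Srf to Mkl1 was 1.97, 2.99 and 3.08 at 1 h, 2.43, 1.91 and 1.42 at 6 h, and 1.89, 1.98 and 1.22 in control cells. By exact permutation it gave p = 0.2 at 1 h and p = 0.6 at 6 h against control, and p = 0.2 for 6 h against 1 h. Within same-numbered pairs it was higher at 1 h than in control cells in 3 of 3. An exact two-sided sign-flip test, added after seeing the data, gave p = 0.25, the smallest p that 3 pairs allow. The ratio of Actg1 to Actb was higher in 2 of 3 pairs and that of Tpm1 to Tpm4 in 1 of 3, both with a larger p in the same exact test. Srf and Mkl1 had the highest and the lowest change of the 10 genes at 1 h, and pairing by number is not established.

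Vcl varied most between replicates. It encodes vinculin, which links talin and actin at focal adhesions and tightens under load (chr14:20929433-21033673, plus strand). Its levels were 112, 132 and 118 FPKM at 1 h, 169, 62.8 and 111 FPKM at 6 h, and 106, 93.1 and 193 FPKM in control cells. The highest value, in control replicate 3, was 3.07 times the lowest, in 6 h replicate 2, against 1.59 times for the median gene of the 10 and 2.03 times for the median of all genes tested. The SD on the log2 scale was 0.12 at 1 h, 0.71 at 6 h and 0.56 in control cells. Its log2 change was -0.04 at 1 h (95% interval -0.85 to 0.77) and -0.23 at 6 h (95% interval -1.04 to 0.59). Those signs rested on single libraries: without control replicate 3 the changes were 0.27 at 1 h and 0.09 at 6 h, without 6 h replicate 2 the 6 h change was 0.14, and without both it was 0.46 (SE 0.21, adjusted p = 0.68).

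Actn1 encodes alpha-actinin-1, which crosslinks antiparallel filaments in stress fibres (chr12:80167542-80260371, minus strand). It had 325, 324 and 371 FPKM at 1 h, 488, 326 and 396 FPKM at 6 h, and 384, 324 and 509 FPKM in control cells. Control replicate 3 and 6 h replicate 1 were highest, and the groups overlapped. The log2 change was -0.23 (SE 0.21, adjusted p = 0.64) at 1 h and -0.003 (adjusted p = 1.00) at 6 h. Its non-muscle paralog Actn4 shared the family nearly evenly, with Actn1 at 48.9% to 59.4% of the alpha-actinin FPKM, while the muscle genes Actn2 and Actn3 reached at most 0.71 and 1.07 FPKM.

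Flna encodes filamin A, which holds filaments in orthogonal networks and anchors them to membrane proteins (chrX:74223461-74246534, minus strand). It had 276, 242 and 201 FPKM at 1 h, 208, 206 and 232 FPKM at 6 h, and 242, 262 and 296 FPKM in control cells. As did 5.32% of all genes, Flna lay wholly below control at 6 h, by the margin of 232 against 242 FPKM. Its mean was 216 ± 15 FPKM at 6 h and 267 ± 27 FPKM in control cells (SD, n = 3 each), a log2 change of -0.30 (SE 0.16, adjusted p = 0.88). At 1 h the change was -0.16 (adjusted p = 0.67).

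Tropomyosins lie along actin filaments and set which myosins and severing proteins reach them. Tpm1 (chr9:67022593-67049213, minus strand, 10 transcripts in the table) had 1385, 1709 and 1528 FPKM at 1 h, 1451, 1258 and 1810 FPKM at 6 h, and 1683, 1547 and 2074 FPKM in control cells. The groups overlapped, with the highest value in control replicate 3. Its log2 change was -0.19 (SE 0.21, adjusted p = 0.70) at 1 h and -0.24 (adjusted p = 0.88) at 6 h. A gene value cannot tell its smooth muscle from its non-muscle transcripts.

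Tpm4 (chr8:72135292-72153129, plus strand) had 870, 814 and 690 FPKM at 1 h, 704, 567 and 767 FPKM at 6 h, and 893, 917 and 764 FPKM in control cells. At 6 h, 2 of 3 libraries were below every control library and replicate 3, at 767 FPKM, was just above control replicate 3. Its mean of 680 ± 102 FPKM at 6 h, against 858 ± 82 FPKM in control cells (SD, n = 3 each), gave the lowest log2 change of the 10 at 6 h, -0.34 (95% interval -0.76 to 0.07, adjusted p = 0.88). The 1 h change was -0.12 (adjusted p = 0.77). Tpm1 held 48.3% to 59.5% and Tpm4 21.9% to 30.3% of the tropomyosin FPKM, and Tpm2 and Tpm3 the rest. The ratio of Tpm1 to Tpm4 gave exact permutation p = 0.9 at 1 h and p = 0.7 at 6 h against control.

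Cnn2 encodes calponin 2, an actin-binding protein of smooth muscle and motile cells (chr10:79988600-79995400, plus strand). It had 394, 365 and 306 FPKM at 1 h, 292, 359 and 430 FPKM at 6 h, and 456, 441 and 453 FPKM in control cells. Every heated library, at 1 h and at 6 h, was below every control library. Of all genes, 21.4% lay wholly below control at 1 h and 5.32% at 6 h. With median-of-ratios scaling Cnn2 was not separated at 1 h. Its control libraries were the tightest group of any of the 10 genes apart from Actb at 1 h. The mean was 355 ± 45 FPKM at 1 h, 361 ± 69 FPKM at 6 h and 450 ± 7.8 FPKM in control cells (SD, n = 3 each). Its log2 change was -0.35 (SE 0.18, adjusted p = 0.50) at 1 h and -0.34 (SE 0.18, adjusted p = 0.88) at 6 h. The paralog Cnn3 was at a similar level, 355, 364 and 466 FPKM at 1 h, 478, 345 and 345 FPKM at 6 h, and 393, 292 and 417 FPKM in control cells, without that separation. Cnn1, the calponin of differentiated smooth muscle, ran from 18.4 FPKM in 6 h replicate 2 to 119 FPKM in control replicate 3.

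A pair of libraries held 10 of the 20 extreme values (highest and lowest) of the 10 genes. Control replicate 3 held the highest value of 5 of them (Mkl1, Vcl, Flna, Tpm1 and Actn1), and 6 h replicate 2 the lowest value of 5 (Actb, Srf, Vcl, Tpm1 and Tpm4). This pair was picked by these counts, and no share over all genes is given beside them. The counts therefore do not set the 10 genes apart from the table. Control replicate 3 also held the Sertoli cell marker sum of 3213 FPKM and the lowest summed FPKM of all genes, 433744, and 6 h replicate 2 the highest, 536932, and the lowest contractile marker sum, 2716 FPKM. The part of these differences in the levels of the 10 genes was not tested. The typical spread of the 10 genes was that of the table: their median SD on the log2 scale was 0.14 at 1 h, 0.27 at 6 h and 0.22 in control cells, against 0.15, 0.28 and 0.24 over all genes tested. Without both libraries, 0 of 10 genes were called in any comparison, and the medians were -0.08 at 1 h and -0.11 at 6 h against control and 0.13 for 6 h against 1 h.

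**Figure D4:**
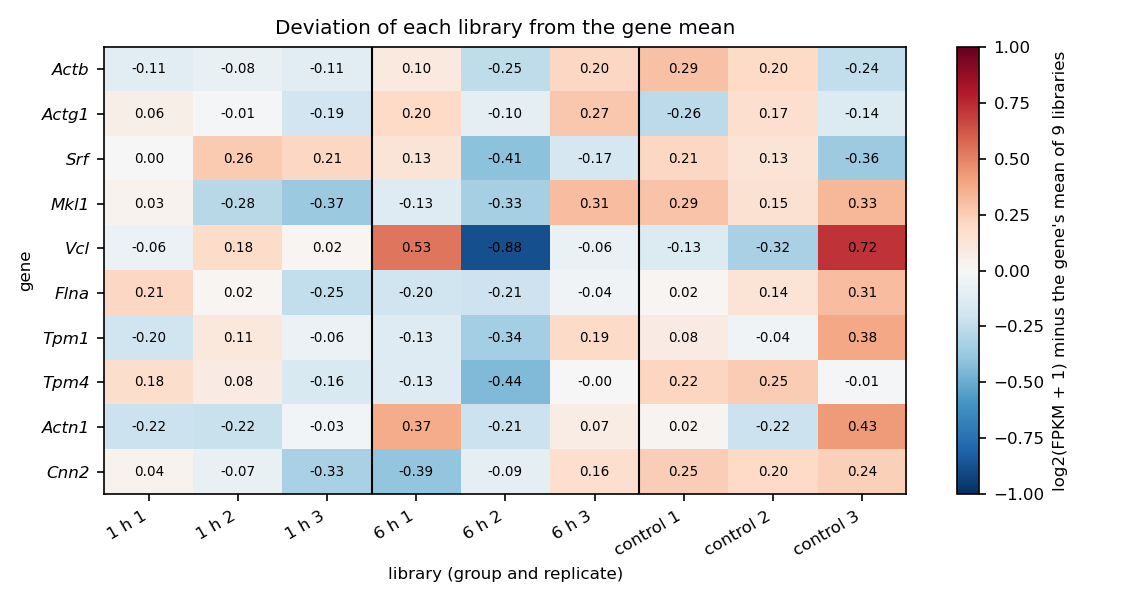
Deviation of each library from the gene's mean over the 9 libraries, on the log2(FPKM + 1) scale (colour and printed value), for the 10 genes (rows) and the libraries (columns, with lines between groups). Vcl spans -0.88 in 6 h replicate 2 to 0.72 in control replicate 3, and Cnn2 is positive in all 3 control libraries.

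The genes around the axis were followed through 6 lists that leave out the 10 genes themselves. The list of MRTF-SRF targets held 22 other genes, all tested, and limma called 0 in any comparison. At 1 h 3 of the 22 lay wholly above and 3 wholly below control, against 4.49% and 21.4% of all genes. The median log2 change was -0.15 against -0.17 for all genes, and 2 had an unadjusted p below 0.05, against 10.8% of all genes. The highest was Filip1l, a filamin-interacting protein of stress fibres, with 60.9, 79.7 and 85.9 FPKM at 1 h, 35.9, 18.9 and 30.2 FPKM at 6 h, and 42.3, 29.0 and 51.1 FPKM in control cells. Its log2 change was 0.89 at 1 h (SE 0.27, adjusted p = 0.35), with all 1 h libraries above all others. The lowest at 1 h was the formin Fhod3, at -0.72 (adjusted p = 0.57), under 6 FPKM in every library. At 6 h the medians were -0.21 for the list and -0.06 for all genes. The extremes there were the fibronectin receptor subunit Itga5, at 0.42 (adjusted p = 0.88), and the muscle stress protein gene Ankrd1, at -1.12 (SE 0.60, adjusted p = 0.88), which had 177, 35.8 and 273 FPKM at 6 h and 272, 304 and 222 FPKM in control cells. CArG boxes were in the promoters of 4 of the 17 genes of this list with a RefSeq window. In the lists below they were in 1 of 12 immediate early genes, 2 of 15 focal adhesion genes and 1 of 28 filament turnover genes. They were also in 1 of 18 cofactor and pathway genes and 2 of 11 paralogs. A gene was counted if any of its windows held a box. The share was 1.63% of all 32851 promoters, and 1.57% with the first listed for each gene.

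Among immediate early genes listed as targets of SRF with the ternary complex factors, 1 passed the adjusted test at 1 h. That control was not tested here. The list was chosen with earlier results of these data known, so its counts are a description. Of 15 listed, all tested, 12 lay wholly above control at 1 h, against 4.49% of all genes, and 11 had an unadjusted p below 0.05, against 10.8% of all genes in either direction. The median log2 change was 1.90 at 1 h, against -0.17 for all genes, -0.18 at 6 h, and -2.005 for 6 h against 1 h. Ier3, Dusp1 and Klf2 overlapped control. The called gene, Egr4, a zinc finger factor, rose to 22.8, 20.3 and 18.9 FPKM, against 2.02, 0.32 and 0 FPKM in control cells, a log2 change of 3.77 (SE 0.40, adjusted p = 0.0061). At 6 h it had 1.15, 0.07 and 0.20 FPKM and was lower than at 1 h by -3.95 on the log2 scale (adjusted p = 0.0047). Its size depends on the pseudocount, because the control and 6 h values are near 0, and with a pseudocount of 0.1 the change was 5.54 with an adjusted p of 0.12.

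The other 14 immediate early genes were not called at 1 h. Fos, named after its values were seen, had 209, 211 and 172 FPKM at 1 h, 89.4, 47.5 and 22.6 FPKM at 6 h, and 131, 55.4 and 19.0 FPKM in control cells. Nr4a1, an orphan nuclear receptor gene, had 337, 352 and 536 FPKM at 1 h, 204, 22.7 and 28.3 FPKM at 6 h, and 124, 94.8 and 33.0 FPKM in control cells. For both genes every 1 h library was above every library of the other groups, while control and 6 h replicates of 1 gene differed several-fold among themselves. The lowest change at 1 h was that of Klf2, -0.28 (adjusted p = 0.75), with control values of 64.5, 45.6 and 18.3 FPKM. The highest at 6 h was Egr2, at 0.23 (adjusted p = 0.95). The highest 6 h value of Fos, Nr4a1 and Egr4 was that of 6 h replicate 1. Without that library limma called 7 of the 109 tested list genes lower at 6 h than at 1 h. They were Egr2, Egr4, Nr4a1, Btg2, Klf4, Filip1l and Rnd3. Of all 11392 genes in that fit, 65 were called lower and 39 higher.

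**Figure D5:**
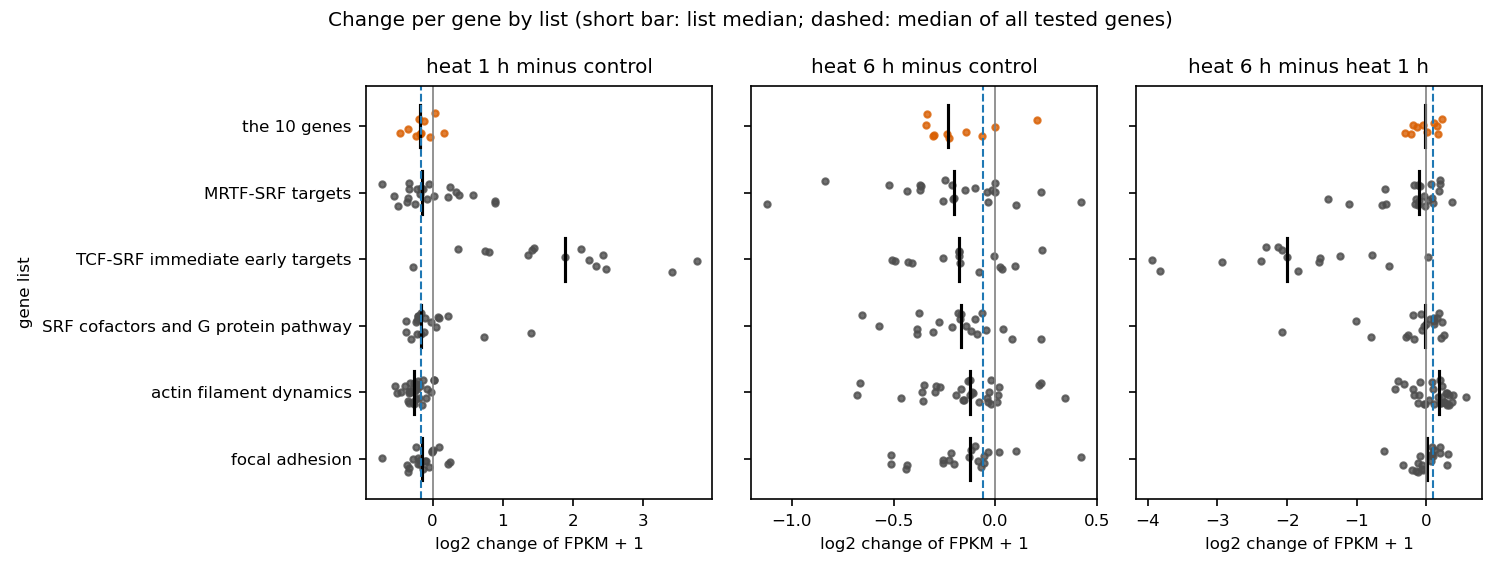
Fitted log2 change of FPKM + 1 (horizontal axis, a different range in each panel) of every tested gene of the 10 and of 5 lists, 1 point per gene, with the list median as a short bar and the median of all tested genes as a dashed line. The 10 genes and the MRTF-SRF targets have medians of -0.17 and -0.15 at 1 h, and the immediate early genes 1.90.

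Upstream of SRF, 20 of 22 other cofactors and small G protein pathway genes were tested. Limma called none at 1 h or at 6 h against control, where 2 were higher at 1 h and 2 lower at 6 h at an unadjusted p below 0.05. Over all genes those shares, in either direction, were 10.8% and 4.62%. Of the 20, 2 lay wholly above and 4 wholly below control at 1 h, against 4.49% and 21.4% of all genes. The median log2 change was -0.16 at 1 h and -0.17 at 6 h, against -0.17 and -0.06. Rnd3, which encodes a small G protein that opposes stress fibre assembly, had 97.9, 138 and 127 FPKM at 1 h, 37.8, 18.0 and 31.4 FPKM at 6 h, and 51.3, 38.1 and 44.5 FPKM in control cells. The 3 groups did not overlap, with 1 h highest and 6 h lowest. Rnd3 fell at 6 h relative to 1 h, with a log2 change of -2.07 (SE 0.26, adjusted p = 0.012). The call was lost without 1 h replicate 2 (adjusted p = 0.086) or without 1 h replicate 3 (adjusted p = 0.073). Rnd3 also lost it with only the 2 groups compared in the fit, with or without the replicate block. Against control its change was 1.41 at 1 h (adjusted p = 0.10, and 0.019 without 6 h replicate 2) and -0.66 at 6 h (adjusted p = 0.88). The kinases that phosphorylate cofilin, Limk1 and Limk2, were at -0.38 for Limk2 at 1 h (adjusted p = 0.62) and 0.22 for Limk1 at 6 h (adjusted p = 0.89), the lowest and the highest of the list in those comparisons.

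Actin filament turnover, the step that sets the pool of monomers read by MRTF-A, was represented by 30 genes, all tested. Limma called none in any comparison. At an unadjusted p below 0.05 there was 1 at 1 h and 1 at 6 h, both lower than control, against 10.8% and 4.62% of all genes. Between 6 h and 1 h there was 1, higher at 6 h, against 11.6%. At 1 h 14 of the 30 lay wholly below control and none above, against 21.4% and 4.49% of all genes, with a median log2 change of -0.26 against -0.17. Tmsb4x, which encodes the main monomer-binding peptide thymosin beta-4, was lowest, with 1128, 1253 and 1410 FPKM at 1 h, 1620, 1222 and 2212 FPKM at 6 h, and 1884, 1597 and 2024 FPKM in control cells. Its log2 change at 1 h was -0.54 (SE 0.24, adjusted p = 0.47). The highest was Gsn, the severing protein gelsolin, at 0.02 at 1 h and 0.34 at 6 h (adjusted p = 0.88), and the lowest at 6 h was the formin Diaph3, at -0.68 (adjusted p = 0.88). At 6 h the list's median was -0.12, and 6 of its genes were wholly higher at 6 h than at 1 h, against 15.2% of all genes.

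Of 20 other focal adhesion genes, all tested, limma called none, with 0 at 1 h and 1 at 6 h at an unadjusted p below 0.05, against 10.8% and 4.62% of all genes. At 1 h 5 lay wholly below control and none above, against 21.4% and 4.49% of all genes, and at 6 h 3 lay wholly below, against 5.32%. The medians against control were -0.15 at 1 h and -0.12 at 6 h, against -0.17 and -0.06 for all genes, and 0.01 between both times, against 0.09. The extremes at 1 h were Csrp1, a LIM protein of the actin cytoskeleton, at 0.25 (adjusted p = 0.57), and Tns3, the adhesion adaptor tensin 3, at -0.72 (SE 0.45, adjusted p = 0.54). At 6 h they were Itga5, given above, and Lpp, a zyxin relative, at -0.51 (adjusted p = 0.88). Of 16 paralogs of the 10 genes, 11 were tested and limma called none, with 0 at an unadjusted p below 0.05 in any comparison, 5 wholly below control at 1 h, against 21.4% of all genes, and medians of -0.30 at 1 h and -0.17 at 6 h, against -0.17 and -0.06 for all genes. Flnc, the muscle filamin, was the highest of these at 0.12 at 1 h and 0.26 at 6 h (adjusted p = 0.89), and Cnn1 the lowest at 1 h, at -0.56 (SE 0.65, adjusted p = 0.71).

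Genes with profiles most like Actb, Srf and Vcl over the 9 libraries were ranked by Pearson's r of log2(FPKM + 1), as a description that shares libraries and scaling. For Actb the 3 nearest were Slbp, the histone mRNA stem-loop binding protein (r = 0.98), Zfp961 (r = 0.98) and Sec23b, a coat protein of vesicles leaving the endoplasmic reticulum (r = 0.94). For Srf they were Frat2 (r = 0.96), Eid3 (r = 0.95) and Zfp868 (r = 0.92), all under 5 FPKM. For Vcl they were Zkscan1 (r = 0.99), Zfr (r = 0.97) and Fbxo3 (r = 0.97). None of the 9 belonged to the 10 genes or to the lists above. With 11460 genes and 9 libraries, high values of r are to be found for any gene.

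The authors deposited their own comparisons, with q-values whose headers name DEGseq. In the authors' deposited table all 10 genes had a q-value of at most 0.001 in the 1 h comparison with control, as did 9 in the 6 h comparison with control and 9 in the comparison of both times. Among all genes with a q-value in the authors' deposited table the shares were 55.2%, 44.1% and 48.7%. None of the 10 also reached 2-fold in the authors' deposited table. Their log2 fold changes in the authors' deposited table ran from -0.49 to 0.15 at 1 h, from -0.34 to 0.20 at 6 h and from -0.31 to 0.25 for 6 h against 1 h. The limma changes had similar ranges, from -0.46 to 0.16, from -0.34 to 0.20 and from -0.31 to 0.23, with 0 of 10 called.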

How the data were processed

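The 10 genes and the lists around them were chosen with earlier results of these data known. Per the file headers the deposited values are FPKM per gene and library, fragments scaled to transcript length and library, to 2 decimals. The headers of the authors' q-values name DEGseq, while those of their log2 fold changes and p-values name no tool. In the submitters' processing notes RSEM 1.2.12, Bowtie2 2.2.5 and HISAT2 2.0.4 are listed beside mm10, without their roles. The library kit's strand setting is not given in the sources used here. FPKM is relative to the library, so a rise of some transcripts can lower the values of others. With values rescaled to equal summed FPKM the median change of all genes at 1 h was -0.16. The cause of the shift at 1 h was not tested.

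Of 20717 rows, 17559 had values. Those reaching 1 FPKM in 3 or more of 9 libraries (11460) entered limma 3.58.1 (R 4.3.3) as log2(FPKM + 1), variance trend on, 3 group means in 1 fit (6 residual degrees of freedom), no replicate block, two-sided, Benjamini-Hochberg adjustment, called at an adjusted p below 0.05. Fold changes on this scale understate low genes. The design had named RPKM, and FPKM values take the same test. The script was tested on simulated data. Depth was estimated from the steps between low values: 89.9% to 92.3% of them were within 0.2 of whole reads. This was not achieved for every gene, and count tests were left out.

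Replicate numbers recur across groups. Deviations of same-numbered 1 h and control libraries from their group means correlated at 0.19, 0.15 and 0.26. Those of unlike-numbered libraries correlated at -0.28 to 0.17. These ranges overlap and do not establish pairing by number. The reported limma changes and permutation tests at 1 h did not pair libraries. Pairing by number was used only in the replicate-block alternatives and in the sign-flip tests of the ratios. Genes named were the 10, up to 4 called genes of each list and its highest and lowest against control, the 3 nearest profiles of Actb, Srf and Vcl, and markers; others are said to be outside that rule. Alternatives changed the pseudocount, the filter, the scaling, the trend, the block, the groups in the fit and the libraries. Lengths, positions and sequences came from RefSeq (GRCm38.p6) and GENCODE M21. Figures were drawn with matplotlib 3.10.9, and permutation tests used scipy 1.17.1.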

Additional observations from a re-analysis of the deposited data

Results flagged for a closer look

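Beside the 10 genes, 2 genes of the surrounding lists had a heat effect at 6 h that differed from that at 1 h, by the limma test of 6 h against 1 h. Egr4 differed by -3.95 on the log2 scale (adjusted p = 0.0047), with every 6 h library below every 1 h library. Rnd3 differed by -2.07 (adjusted p = 0.012), with 3 of 3 libraries at 6 h below all 1 h and all control libraries, and 3 of 3 at 1 h above all control libraries. None of the 10 genes differed in this way.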

How the results depend on the processing

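Of 21 alternatives, 1 (values rescaled to equal summed FPKM) was chosen after seeing the data. Another left out control replicate 3 and 6 h replicate 2 together, libraries that stood out in these same data. None of the 10 genes was called in any of 630 fitted values. The smallest adjusted p was 0.21 (Actn1, 6 h against 1 h), and 36 of the 630 changes had another sign than the reported one, 11 at 1 h, 12 at 6 h and 13 between 6 h and 1 h. The largest moves were those of Vcl. The count of genes without overlap at 1 h (2 of 10) was 0 with median-of-ratios scaling, 2 to 5 when each library was left out in turn, and 5 without control replicate 3 and 6 h replicate 2 together, where 43.6% of all genes did not overlap. At 6 h (2 of 10) it was 2 to 5 when each library was left out and 7 without both, 3 higher and 4 lower, where 34.7% of all genes did not overlap. Between 6 h and 1 h (0 of 10) it was 2 with median-of-ratios scaling, 0 to 3 when each library was left out and 3 without both, all higher, against 32.1% of all genes. Fewer libraries raise these counts by construction. For scaling the cause was not tested. Of the 109 tested genes in the lists, 1 was called at 1 h, and 0 with a pseudocount of 0.1, 2 with only the 2 groups compared in the fit and 1 to 2 when each library was left out. Between 6 h and 1 h 2 were called, and 1 with a pseudocount of 0.1, 1 with only the 2 groups compared, 1 with that and the replicate block, and 1 to 7 when each library was left out, 7 without 6 h replicate 1. At 6 h against control limma called 0 under every alternative. Egr4 kept its calls in 20 of 21 alternatives in both comparisons, and Rnd3 its call between 6 h and 1 h in 17 of 21.

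With the replicate block in the fit of all 9 libraries, 0 of the 10 genes were called in each comparison, the lists kept 1 call at 1 h, 0 at 6 h and 2 between 6 h and 1 h, and the block changed no other call named in the text. Same-numbered libraries correlated at -0.18, 0.04 and 0.01 for 6 h and control and at -0.27, -0.10 and -0.35 for 6 h and 1 h. These values gave no sign of pairing by number in those comparisons. With 3 libraries a group and an SE near 0.20, changes of the 10 genes well under 2-fold could be missed, and the intervals give the size that each comparison allows.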
